A study of Homo sapiens with 9 samples.

Results

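SLC25A20, the carnitine-acylcarnitine carrier of the inner mitochondrial membrane, was followed together with 9 other genes of carnitine transport and long-chain fatty acid oxidation in cells that received a mimic of miR-1229-3p. The 10 genes are SLC25A20, SLC22A5, CPT1A, CPT1C, CPT2, CRAT, ACADVL, ACADM, HADHA and HADHB. They were taken by name from the count table, which holds all 10 among its 14943 genes. SLC25A20 was selected by the study on its lower RNA level in these same libraries and as a putative target of miR-1229-3p. The values that chose it, and its seed matches, are therefore given as a description without a test. The other 9 genes were added for their place in the pathway.

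The cells were SH-Sy5y, a human neuroblastoma cell line, and a single line stands for neurons here. Cells were transfected for 48 h, and polyadenylated RNA was sequenced from 3 libraries in each of 3 groups. Ctrl. cells received 40 pmol of a negative control oligonucleotide and 0 pmol of mimic. The 10 nM cells received 20 pmol of mimic with 20 pmol of the control oligonucleotide, and the 20 nM cells received 40 pmol of mimic with 0 pmol of it. At 20 nM the presence of the mimic and the absence of the control oligonucleotide therefore cannot be told apart. The study combined RNA of neighbouring wells where it could and the labels do not tie libraries to separate cultures, so the p-values measure the spread between these libraries, which may be technical.

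Long-chain fatty acids cannot cross the inner mitochondrial membrane as CoA esters. CPT1 at the outer membrane exchanges CoA for carnitine, SLC25A20 carries the acylcarnitine inward in exchange for free carnitine, and CPT2 on the matrix side restores the acyl-CoA, which ACADVL and the trifunctional protein of HADHA and HADHB then shorten by beta-oxidation. Carnitine itself enters the cell mainly through SLC22A5. Neurons are known to oxidise fatty acids sparingly, and CPT1C is a brain form of CPT1 that resides in the endoplasmic reticulum.

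A microRNA lowers mRNAs that pair with its seed (bases 2 to 8 from its 5′ end), mostly in the 3′ untranslated region (UTR). Mature miR-1229-3p is printed first because its seed, in capitals, sets which sites were searched. It has 23 bases and lies at chr5:179798278-179798300 on the minus strand (RefSeq sequence, GRCh38.p14).
miR-1229-3p: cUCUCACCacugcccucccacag

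The longest annotated 3′ UTR of each gene was searched on the sense strand for the 8-mer GGTGAGAA, the 7-mers GGTGAGA (bases 2 to 8) and GTGAGAA (bases 2 to 7 followed by A) and the 6-mer GTGAGA, each gene keeping its longest match. Of the 10 genes, 3 held a 7-mer and 0 held an 8-mer. Over the 13778 genes with a 3′ UTR of at least 50 bases, 22.6% held a 7-mer or an 8-mer, so the 2 of 9 genes beside SLC25A20 (22.2%) lay near that share. SLC25A20 differed in number: its 784-base 3′ UTR held 3 separate 7-mers, and 1.61% of all genes held 3 or more 7-mer or 8-mer sites, with a median 3′ UTR of 1552 bases. The study chose SLC25A20 among putative targets of this microRNA, so its number of sites is a description and not independent of that choice. The first and the following site start 29 bases apart.

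The 3 sites of SLC25A20 are shown with their surroundings because they are the seed matches of the gene with the lowest fold change among the 10. They begin 105, 134 and 685 bases after the stop codon, all in exon 9 of 9 on the minus strand, at chr3:48857599-48857605, chr3:48857570-48857576 and chr3:48857019-48857025 (GENCODE 44, GRCh38.p14). Capitals mark the match.
SLC25A20 site at base 105: gggaggggaatGGTGAGAtccgagccctg
SLC25A20 site at base 134: tgcatggacttGGTGAGActgttgcctta
SLC25A20 site at base 685: tgctgggataaGTGAGAAagcccagggtg

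SLC22A5 is shown next because it was the other gene of the 10 that was lower in every mimic library. Its 1340-base 3′ UTR in exon 10 of 10 held a 6-mer at base 291 (chr5:132394563-132394568, plus strand) and 7-mers at bases 308 and 783 (chr5:132394580-132394586 and chr5:132395055-132395061). Of all genes, 6.14% held 2 or more 7-mer or 8-mer sites. SLC22A5 is singled out here for its level in these same libraries, so its number of sites is a description.
SLC22A5 site at base 291: cactagaaccaGTGAGAtctggaggaat
SLC22A5 site at base 308: tctggaggaatGTGAGAAgcatatgctaa
SLC22A5 site at base 783: gaaatttatcaGGTGAGAgagatgagcaa

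ACADM is shown as the gene with a match that was not called in any comparison. Its 7-mer lies 918 bases after the stop codon at chr1:75762001-75762007 (plus strand), in a 2403-base 3′ UTR that is longer than the whole 2261-base canonical transcript and belongs to another transcript. The canonical 3′ UTR of ACADM does not hold the site. The 3′ UTRs of CPT1A (2761 bases), CPT2 (805), HADHA (615), CRAT (603), HADHB (512), ACADVL (169) and CPT1C (126) held none of these matches, which says only that these letters are not in those windows.
ACADM site at base 918: aaaatgctggaGTGAGAAggaatgttaca

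**Figure D1:**
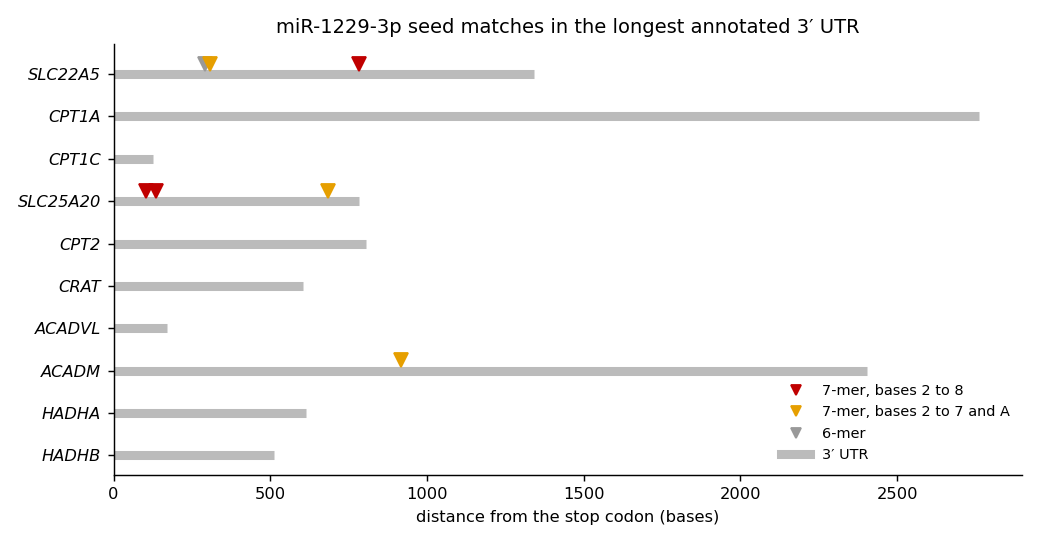
Seed matches of miR-1229-3p (triangles) along the longest annotated 3′ UTR (grey bar) of each of the 10 genes, with distance from the stop codon in bases on the x axis. SLC25A20 carries 3 7-mers in 784 bases, SLC22A5 carries 2 7-mers and a 6-mer in 1340 bases, ACADM carries a 7-mer, and the other genes carry none.

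The libraries held between 17.42 and 28.19 M estimated counts. No replicates were alike enough to be a single library deposited again (chi-square per degree of freedom 4.68 to 46.4 within groups). The library 20 nM replicate 3 stood apart, at 47.4 on the first principal component (30.4% of the variance) against -17.1 to 7.71 for the other 8. All 12 markers of noradrenergic neuroblastoma were in the table, with a summed level of 6853 to 8154 CPM (counts per M counts of a library, its total scaled by TMM) in each library. TH, the first enzyme of catecholamine synthesis, was at only 0.122 to 0.914 CPM. Of the 12 markers, 4 were lower at 20 nM (33.3%, against 6.08% of all genes) and 0 at 10 nM (against 0.428%), and their part in the results was not tested. Mesenchymal or Schwann-like markers (7 of 10 in the table) summed to 36 to 45.4 CPM in all libraries, with COL1A1 alone at 19.9 to 27.8 CPM. Of these 7, 1 was higher at 20 nM (14.3%, against 7.8% of all genes): CD44, a cell surface receptor for hyaluronan, with a log2 fold change of 1.31 (SE 0.23, adjusted p = 0.00293) and a mean of 1.36 CPM in Ctrl. and 3.18 CPM at 20 nM, and its part in the results was not tested. The immune, epithelial, hepatocyte and striated muscle lists each summed to at most 5.14 CPM.

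SLC25A20 (ENSG00000178537, chr3:48856926-48898904, minus strand) was lower in all 6 mimic libraries than in any control, and its mean at 20 nM was 55.0% of the control mean. In Ctrl. replicates 1 to 3 it was at 17.5, 17.7 and 19.2 CPM, at 10 nM at 10.2, 13.85 and 13.7 CPM, and at 20 nM at 9.33, 9.72 and 10.9 CPM. Neither mimic group overlapped the controls, while the mimic groups overlapped each other through 10 nM replicate 1. Of all 14943 genes, 9.9% lay below every control at 10 nM and 13.7% at 20 nM, and 6.32% lay below every 10 nM library at 20 nM. The group means were 18.2 ± 0.92 CPM in Ctrl., 12.6 ± 2.05 CPM at 10 nM and 10.0 ± 0.84 CPM at 20 nM (SD, n = 3). Each library held 223.2 to 515.8 estimated counts of this gene. In bulk RNA, fewer expressing cells and less RNA per cell cannot be told apart.

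The log2 fold change of SLC25A20 from the fit over all libraries was -0.57 (SE 0.10) at 10 nM and -0.98 (SE 0.12) at 20 nM. These placed it 224th and 119th from the lowest of the 14943 genes, as a description, since it was picked for this pattern. Both values share the same 3 controls. Between 20 nM and 10 nM the log2 fold change was -0.41 (SE 0.12), with rank 501. The value at 10 nM depended on replicate 1, the lowest library of that group: it was -0.43 without that library and -0.65 without replicate 2. At 20 nM it lay between -1.02 and -0.93 when any single library was left out.

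**Figure D2:**
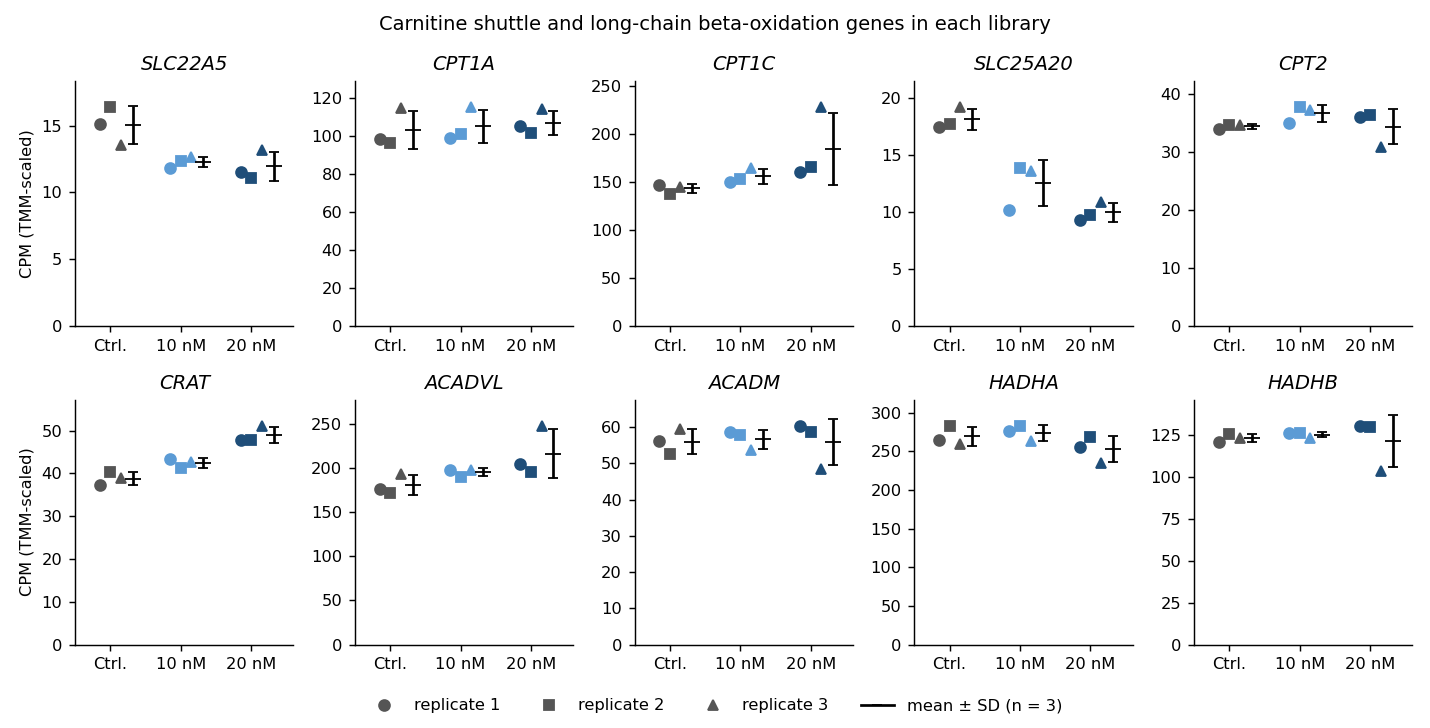
TMM-scaled CPM of the 10 genes in each library (y axis, from 0) by group (x axis), with marker shape giving the replicate and the black bar the mean ± SD of 3 libraries. SLC25A20 and SLC22A5 sit below all controls at both concentrations, CRAT steps upward without overlap, and 20 nM replicate 3 (triangle) is the highest or the lowest point for 7 of the 10 genes.

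SLC22A5 (ENSG00000197375, chr5:132369710-132395613, plus strand), the high-affinity carnitine transporter of the plasma membrane, was the only gene among the other 9 that fell. It was at 15.2, 16.4 and 13.55 CPM in Ctrl., at 11.8, 12.4 and 12.6 CPM at 10 nM, and at 11.55, 11.1 and 13.2 CPM at 20 nM. All mimic libraries lay below all controls, and the mimic groups overlapped each other. At 20 nM its log2 fold change was -0.41 (SE 0.11, adjusted p = 0.022 by the quasi-likelihood test of edgeR with Benjamini-Hochberg adjustment, lower in 3 of 3 same-numbered libraries). At 10 nM it was -0.31 (SE 0.09) and did not pass the threshold of 0.05 (adjusted p = 0.158, unadjusted p = 0.0056). The difference between 20 nM and 10 nM was -0.10 (SE 0.10, adjusted p = 0.729). The call at 20 nM was kept in 12 of 18 alternative fits. It was lost without Ctrl. replicate 1 (adjusted p = 0.0557), Ctrl. replicate 2 (adjusted p = 0.0599), 20 nM replicate 1 (adjusted p = 0.0776) or 20 nM replicate 2 (adjusted p = 0.115). It was also lost without the surrogate variable, a fitted term for unexplained variation between libraries (-0.33, adjusted p = 0.0886). With a term for the replicate number in place of the surrogate variable the call was lost too (-0.33, adjusted p = 0.0705).

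CRAT (ENSG00000095321, chr9:129094142-129111189, minus strand), which interconverts short-chain acyl-CoA and acylcarnitine and buffers acetyl units, rose at 20 nM. It was at 37.2, 40.3 and 38.9 CPM in Ctrl., at 43.4, 41.3 and 42.7 CPM at 10 nM, and at 47.8, 47.8 and 51.1 CPM at 20 nM. The 3 groups did not overlap at either step. Among all genes, 10.1% lay above every control at 10 nM, 15.2% at 20 nM, and 7.92% lay above every 10 nM library at 20 nM. The log2 fold change of CRAT was 0.30 at 20 nM (SE 0.06, adjusted p = 0.00512, higher in 3 of 3 same-numbered libraries). At 10 nM it was 0.12 (SE 0.05, adjusted p = 0.319), and between the concentrations 0.18 (SE 0.06, adjusted p = 0.129). The 20 nM call was kept in 18 of 18 alternatives, with adjusted p from 0.000325 to 0.0279.

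The CPT1 forms and CPT2 did not pass the threshold. CPT1A (ENSG00000110090, chr11:68754620-68844410, minus strand), a mitochondrial form that malonyl-CoA inhibits, was at 98.25, 96.55 and 114.8 CPM in Ctrl., at 99.2, 100.9 and 115.2 CPM at 10 nM, and at 105.2, 101.6 and 114.1 CPM at 20 nM. The groups overlapped, and replicate 3 was the highest in each of them. Its log2 fold changes were 0.00 (SE 0.07, adjusted p = 0.99) and -0.03 (SE 0.08, adjusted p = 0.877).

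CPT1C (ENSG00000169169, chr19:49690898-49713731, plus strand) was at 147.7, 138.2 and 144.9 CPM in Ctrl., at 149.8, 153.8 and 164.8 CPM at 10 nM, and at 160.6, 165.7 and 228.3 CPM at 20 nM. All mimic libraries lay above all controls, with 20 nM replicate 3 far above the rest. Its log2 fold change was 0.07 (SE 0.04, adjusted p = 0.531) at 10 nM and 0.15 (SE 0.05, adjusted p = 0.0654) at 20 nM. The 20 nM value was 0.36 without the surrogate variable, with adjusted p = 0.0851. It was 0.18 without 20 nM replicate 3, where it passed the threshold (adjusted p = 0.0139), as it also did without 10 nM replicate 1 (0.16, adjusted p = 0.0429), with only the groups compared (0.22, adjusted p = 0.00919) and with 2 surrogate variables (0.17, adjusted p = 0.045). In all it passed in 6 of 18 alternatives.

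CPT2 (ENSG00000157184, chr1:53196792-53214197, plus strand) was at 33.9, 34.65 and 34.6 CPM in Ctrl., at 35, 37.7 and 37.3 CPM at 10 nM, and at 35.95, 36.25 and 30.8 CPM at 20 nM. The 10 nM libraries lay above the controls, while the 20 nM libraries fell on both sides of them through replicate 3. The log2 fold changes were 0.11 (SE 0.06, adjusted p = 0.424) and 0.07 (SE 0.07, adjusted p = 0.528).

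The enzymes of beta-oxidation did not pass the threshold either. ACADVL (ENSG00000072778, chr17:7217125-7225266, plus strand), the very-long-chain acyl-CoA dehydrogenase, was at 176.2, 171.4 and 193.2 CPM in Ctrl., at 197, 190 and 198 CPM at 10 nM, and at 204.3, 195.5 and 247.5 CPM at 20 nM. The 20 nM libraries lay above all controls and the 10 nM libraries overlapped them. Its log2 fold changes were 0.08 (SE 0.05, adjusted p = 0.499) and 0.13 (SE 0.06, adjusted p = 0.151), and the latter passed the threshold in 3 of 18 alternatives. ACADM (ENSG00000117054, chr1:75724431-75787575, plus strand), the medium-chain dehydrogenase, ran from 52.4 to 59.5 CPM in Ctrl., from 53.7 to 58.6 CPM at 10 nM and from 48.5 to 60.35 CPM at 20 nM. Its log2 fold changes were 0.05 (SE 0.06, adjusted p = 0.757) and 0.10 (SE 0.06, adjusted p = 0.307).

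HADHA (ENSG00000084754, chr2:26190635-26244672, minus strand) and HADHB (ENSG00000138029, chr2:26243170-26290465, plus strand) encode the alpha and beta subunits of the trifunctional protein. HADHA was at 265.2, 282.6 and 259.6 CPM in Ctrl., at 275.7, 283 and 263.1 CPM at 10 nM, and at 255.9, 268.7 and 235.1 CPM at 20 nM. At 20 nM each library lay below its same-numbered control, yet the groups overlapped. HADHB ran from 120.9 to 125.5 CPM in Ctrl., from 123.3 to 126.1 CPM at 10 nM and from 103.5 to 130.5 CPM at 20 nM. The log2 fold changes at 20 nM were -0.03 for HADHA (SE 0.05, adjusted p = 0.801) and 0.10 for HADHB (SE 0.05, adjusted p = 0.209). Within a library there were 218.3 ± 7.46 CPM of HADHA per 100 CPM of HADHB in Ctrl., 218.8 ± 5.45 at 10 nM and 210.1 ± 15.7 at 20 nM (SD, n = 3), so the subunit ratio differed by less than its spread at 20 nM.

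Whether the authors' counting used strand is not given in the sources used here, so reads from exons that overlapping genes share may not be told apart. The overlaps below are of whole gene spans, introns included, and how much of them is exon was not determined. HADHA and HADHB overlap by 1503 bases on opposite strands, ACADVL overlaps DLG4 by 2717 bases on the opposite strand, and ACADM overlaps RABGGTB by 1379 bases on the same strand. CPT2 overlaps CZIB by 99 bases and CRAT overlaps PTPA by 240 bases, both on opposite strands. Genes that are not among those tested also overlap on opposite strands. Among them are ENSG00000236723 with CPT2 (3993 bases), ENSG00000234055 with CRAT (2413) and DLSTP1 with ACADM (1354). SLC22A5 overlaps MIR3936HG, which is not among the genes tested, by 461 bases on the opposite strand. No annotated gene overlaps SLC25A20, CPT1A or CPT1C, although near-identical copies elsewhere in the genome can exchange reads with any gene.

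Counted together, 0 of the 9 genes other than SLC25A20 passed the threshold at 10 nM, where 0.649% of all genes did (0.428% lower, 0.221% higher). At an unadjusted p under 0.05 there were 2 of 9, beside 2084 of all 14943 genes. At 20 nM, 2 of 9 (22.2%) passed against 13.9% of all genes, 1 lower (6.08% of all genes) and 1 higher (7.8% of all genes). Between 20 nM and 10 nM it was 0 of 9 against 2.79% of all genes (0.883% lower, 1.91% higher). Unadjusted p was under 0.05 there for 1 of 9, beside 2220 of all 14943 genes. DESeq2 gave the same counts of 0, 2 and 0, but it gave SLC22A5 no adjusted p at 10 nM, so that gene could not be called there. The median log2 fold change of the 9 genes was 0.06 at 10 nM, 0.10 at 20 nM and 0.04 between the concentrations, beside 0.00 for all genes in each comparison. The 9 genes ranged from -0.31 to 0.12 at 10 nM and from -0.41 to 0.30 at 20 nM.

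**Figure D3:**
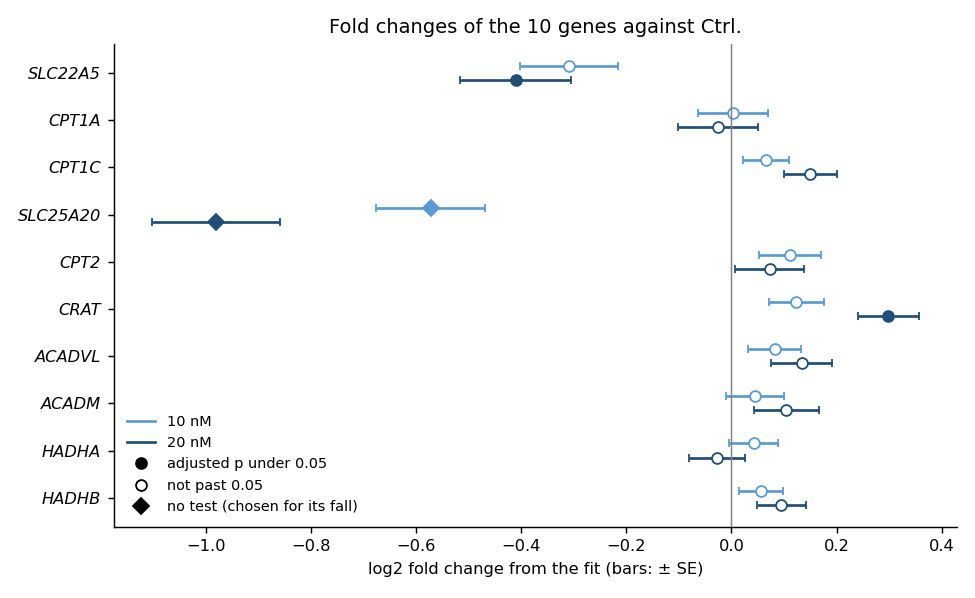
Log2 fold change from the fit (x axis, bars ± SE) of the 10 genes at 10 nM (light) and 20 nM (dark) against the same controls. Filled circles passed an adjusted p of 0.05 and open circles did not, while diamonds mark SLC25A20, which carries no test. Only SLC25A20 and SLC22A5 lie below -0.1, and CRAT is the highest at 0.30.

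The library 20 nM replicate 3 held the highest value of all 9 libraries for 3 of the 10 genes (CPT1C, CRAT, ACADVL) and the lowest for 4 (CPT2, ACADM, HADHA, HADHB). No other library was an extreme for more than 4 of the 10 genes. SLC25A20 and SLC22A5 were both at their highest level of the 20 nM group in that library, whose part in the differences was not tested beyond leaving it out. Leaving it out left 3 of the 9 genes called at 20 nM, beside 2656 of all 14943 genes. With the surrogate variables also estimated again it was 4 of 9, 1 lower and 3 higher (a fit chosen after seeing the data). The latter fit called 2 of the 9 genes at 10 nM, SLC22A5 (log2 fold change -0.28, adjusted p = 0.0484) and ACADVL (0.11, adjusted p = 0.0487). That fit also called more of all genes than the main fit at both concentrations.

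Per kilobase of canonical transcript, which allows levels to be compared between genes, HADHA and ACADVL stood highest and the transporters SLC25A20 and SLC22A5 lowest in Ctrl. HADHA was at 91.45 ± 4.08 and ACADVL at 82.5 ± 5.25 CPM per kb (SD, n = 3), and the ranges of this pair overlapped. Below them HADHB was at 61.7 ± 1.15, CPT1C at 50.5 ± 1.72, ACADM at 24.8 ± 1.56 and CPT1A at 19.7 ± 1.93 CPM per kb. CRAT followed at 14.0 ± 0.55 and CPT2 at 12.7 ± 0.17 CPM per kb. SLC25A20 was ninth of the 10 at 10.2 ± 0.52 CPM per kb and SLC22A5 the lowest at 4.59 ± 0.43 CPM per kb. From ACADVL downward the control ranges of neighbours did not overlap. SLC25A20 kept the ninth place at 7.07 ± 1.16 CPM per kb at 10 nM and 5.62 ± 0.47 CPM per kb at 20 nM, with SLC22A5 at 3.75 ± 0.12 and 3.65 ± 0.34 CPM per kb.

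The balance between neighbouring steps of the shuttle was also read within each library. There were 51.8, 51.2 and 55.45 CPM of SLC25A20 per 100 CPM of CPT2 in the Ctrl. replicates, 29.2, 36.8 and 36.6 at 10 nM, and 26, 26.8 and 35.4 at 20 nM. All mimic libraries lay below all controls. Against CPT1A, the means were 17.65 ± 0.84, 11.95 ± 1.73 and 9.34 ± 0.40 CPM of SLC25A20 per 100 CPM (SD, n = 3). SLC22A5 per 100 CPM of CPT2 was at 43.7 ± 4.18, 33.6 ± 0.54 and 35.2 ± 6.68, and 20 nM replicate 3 reached 42.9, within the control range of 39.1 to 47.3. These ratios restate values that chose SLC25A20 and are a description.

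The other genes of the pathway came from a list of 61 names in 8 roles, of which 54 were in the table. At 10 nM, 0 of 54 passed the threshold against 0.649% of all genes, with 1 called by DESeq2. Unadjusted p was under 0.05 for 11 of 54, beside 2084 of all 14943 genes. At 20 nM, 10 of 54 passed (18.5%, against 13.9% of all genes), 8 higher and 2 lower, with 9 called by DESeq2. Without the surrogate variable 3 of the 10 stayed called (ALDH9A1, PPARD and PPARGC1B). Between the concentrations it was 0 of 54 against 2.79%, with 1 called by DESeq2. Unadjusted p was under 0.05 there for 10 of 54, beside 2220 of all 14943 genes. The median log2 fold change of the list was 0.03, 0.04 and 0.04, beside 0.00 for all genes.

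Of carnitine supply, with 3 genes in the table, ALDH9A1, an aldehyde dehydrogenase of carnitine synthesis, rose. It was at 51.2, 54.0 and 54.4 CPM in Ctrl., at 57.1, 58.3 and 62.6 CPM at 10 nM, and at 68.2, 64.0 and 74.6 CPM at 20 nM, with no overlap between any groups. Its log2 fold change at 20 nM was 0.30 (SE 0.06, adjusted p = 0.00413), and the call was kept in 18 of 18 alternatives. SLC22A4, a related organic cation transporter named here after its values were seen, was near the floor at 0.129 to 0.757 CPM and its log2 fold change of -1.02 did not pass the threshold (adjusted p = 0.207). Neither of the 2 other carnitine acyltransferases was called, and the more abundant, CPT1B of muscle, had a log2 fold change of 0.08 (adjusted p = 0.426). Its transcripts may share reads with a read-through of the neighbouring gene CHKB.

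Of the 11 genes of fatty acid uptake and activation, ACSL3, a long-chain acyl-CoA synthetase, rose (log2 fold change 0.36, SE 0.06, adjusted p = 0.00115). Its CPM were 82.1, 70.7 and 75.1 in Ctrl., 87.1, 84.7 and 79.8 at 10 nM, and 98.7, 92.5 and 73.2 at 20 nM. Each pair of groups overlapped, with 20 nM replicate 3 below 2 of the 3 controls, and the call was lost without the surrogate variable (0.21, adjusted p = 0.228). Of the 5 genes of malonyl-CoA control of CPT1, 0 were called, and the most abundant, ACACA, which makes malonyl-CoA, had a log2 fold change of 0.09 (adjusted p = 0.32).

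Of the 14 other matrix enzymes and electron transfer genes, ACAT1, the mitochondrial acetoacetyl-CoA thiolase, rose (log2 fold change 0.30, SE 0.05, adjusted p = 0.00194). Its CPM ranged from 82.1 to 85.4 in Ctrl. and from 84.9 to 102.6 at 20 nM, and without the surrogate variable the adjusted p was 0.164. Of the 10 genes of peroxisomal beta-oxidation, ABCD2 (0.39, SE 0.07, adjusted p = 0.00392) and ABCD3 (0.20, SE 0.05, adjusted p = 0.0219), both fatty acyl-CoA transporters of the peroxisome, rose. ABCD2 was at 71.35 and 71.2 CPM in 20 nM replicates 1 and 2 but at 52.7 CPM in replicate 3, within the control range of 52.55 to 58.5 CPM. Its call was lost without the surrogate variable (adjusted p = 0.189). That of ABCD3 was lost without Ctrl. replicate 2 (adjusted p = 0.0624), 20 nM replicate 1 (adjusted p = 0.152) or 20 nM replicate 2 (adjusted p = 0.116). It was also lost without the surrogate variable (0.12, adjusted p = 0.35) and with only the groups compared (0.16, adjusted p = 0.0626).

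Among the 6 regulators 4 were called at 20 nM (66.7%, against 13.9% of all genes). This was the highest share of the 8 roles, and the others had 0 to 33.3%. The share of a role was not tested. Of these, 3 were higher (7.8% of all genes) and 1 lower (6.08% of all genes). PPARGC1B, a coactivator of nuclear receptors that drive mitochondrial genes, was at 5.58, 4.65 and 4.21 CPM in Ctrl., at 5.86, 6.87 and 5.71 CPM at 10 nM, and at 8.49, 8.39 and 7.82 CPM at 20 nM. The groups did not overlap at either step. Its log2 fold change was 0.83 (SE 0.15, adjusted p = 0.00331), the highest of the 54 genes, and the call was kept in 18 of 18 alternatives. PPARA and PPARD, fatty-acid-sensing nuclear receptors, rose by 0.33 (SE 0.08, adjusted p = 0.0165) and 0.24 (SE 0.06, adjusted p = 0.0213) on the log2 scale. The call of PPARA was lost without 20 nM replicate 2 (adjusted p = 0.113) or Ctrl. replicate 3 (adjusted p = 0.0543), and that of PPARD without the same libraries (adjusted p = 0.153 and 0.0827). Without the surrogate variable the call of PPARA was also lost (0.24, adjusted p = 0.145).

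RXRA, the receptor that pairs with PPARA and PPARD on DNA, fell. It was at 72.3, 79.95 and 66.8 CPM in Ctrl., at 67.5, 72.1 and 58.3 CPM at 10 nM, and at 48.1, 57.5 and 63.4 CPM at 20 nM. At 20 nM all libraries lay below all controls, with replicate 3 the nearest to them. Its log2 fold change was -0.47 (SE 0.10, adjusted p = 0.0105), and the call was lost without 20 nM replicate 1 (-0.29, adjusted p = 0.141). Without the surrogate variable the call of RXRA was also lost (-0.37, adjusted p = 0.0717). OXCT1, which activates ketone bodies for use, was the other gene that fell (-0.19, SE 0.05, adjusted p = 0.0366), from 63.9 ± 1.05 CPM in Ctrl. to 54.9 ± 1.20 CPM at 20 nM. Its call was lost without any of the 3 controls (adjusted p = 0.0656, 0.0783 and 0.0706 for replicates 1 to 3), or without 20 nM replicate 1 (adjusted p = 0.112) or replicate 2 (adjusted p = 0.116). The call of OXCT1 was also lost without the surrogate variable (adjusted p = 0.0599) and with DESeq2 (adjusted p = 0.066).

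**Figure D4:**
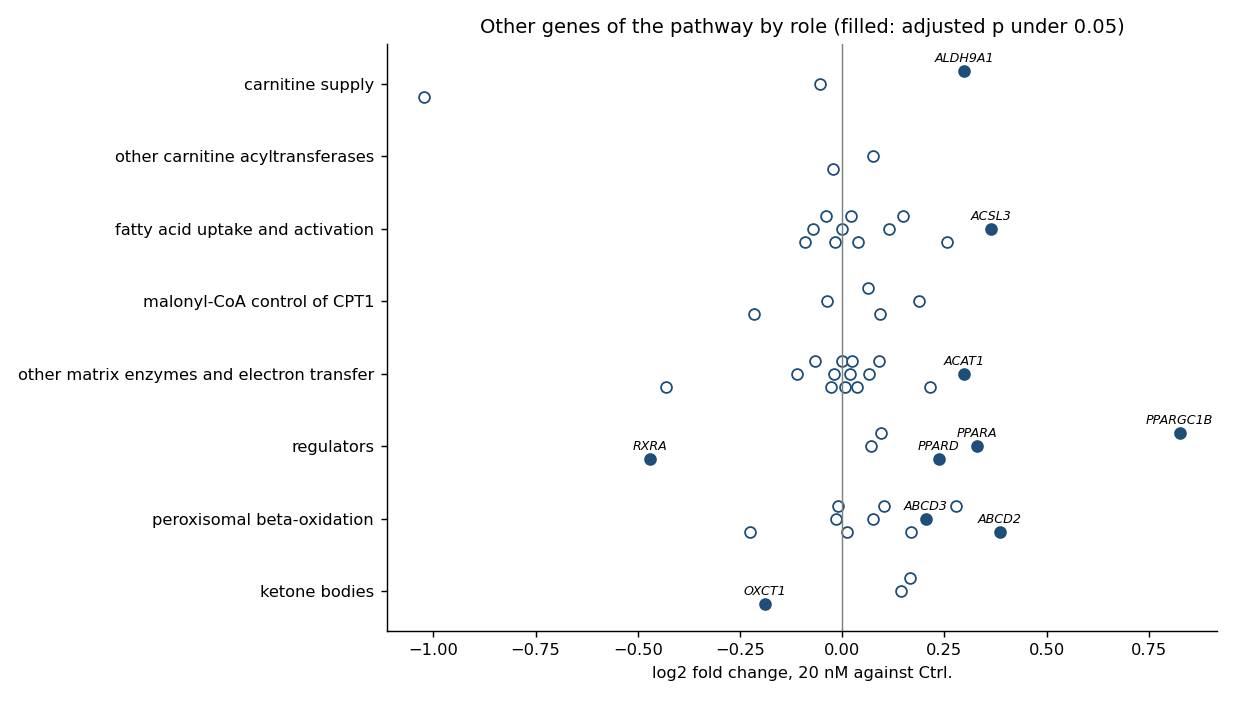
Log2 fold change at 20 nM against Ctrl. (x axis) of the 54 other pathway genes, each a point, by role (y axis, with vertical offsets for legibility only). The 10 filled and named points passed an adjusted p of 0.05 (18.5%, against 13.9% of all genes). Of these, 4 are regulators, from RXRA at -0.47 to PPARGC1B at 0.83.

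In the pathway list, seed matches stood in called genes of both directions. Of the 54 genes, 6 held a 7-mer or an 8-mer (11.1%, against 22.6% of all genes). PPARD, with an 8-mer, and PPARA, with a 7-mer, rose, OXCT1, with a 7-mer, fell, and ACADL, ACAD11 and SCP2, each with a 7-mer, were not called. RXRA held a 6-mer, PPARGC1B held 3 6-mers and still rose, and ALDH9A1, ACSL3, ACAT1, ABCD2 and ABCD3 held no match.

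The carriers nearest SLC25A20 in sequence family were compared next, of which 2 of 4 listed were in the table (SLC25A47 and SLC25A48 were not). SLC25A29, a mitochondrial carrier of basic amino acids, was at 161.7 ± 8.75, 153.8 ± 5.54 and 149.2 ± 1.69 CPM in the groups Ctrl., 10 nM and 20 nM, with a log2 fold change of -0.07 (adjusted p = 0.524) at 10 nM and -0.12 (adjusted p = 0.178) at 20 nM. Each mimic library of SLC25A29 lay below its same-numbered control. At 20 nM all libraries lay below all controls, as for 13.7% of all genes, while the 10 nM libraries overlapped the controls. SLC25A45 was at 12.15 ± 1.46, 12.6 ± 0.43 and 13.2 ± 0.18 CPM, with a log2 fold change of 0.10 (adjusted p = 0.623) at 20 nM. Neither 3′ UTR held a seed match.

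The genes whose log2 CPM followed SLC25A20 most closely over the 9 libraries, among 13683 genes with a mean of at least 1 CPM, were PRKX (Pearson r = 0.987), CYLD (0.966), PTPN1 (0.965), SH3PXD2B (0.964) and IGFBPL1 (0.963). The points share libraries and groups, so these are descriptions without a p. IGFBPL1 was at 555.6 ± 28.7, 325.3 ± 37.1 and 265.9 ± 16.99 CPM, SH3PXD2B at 153.4 ± 1.48, 113.8 ± 3.85 and 100.7 ± 7.67 CPM, and PTPN1 at 75.8 ± 2.66, 61.2 ± 1.41 and 55.3 ± 4.17 CPM in Ctrl., 10 nM and 20 nM. PRKX and SH3PXD2B held an 8-mer in their longest 3′ UTR, and CYLD, PTPN1 and IGFBPL1 held a 7-mer. The share among all genes was 22.6% for a 7-mer or an 8-mer. The 3′ UTRs of the named genes ran from 2526 (PTPN1) to 5427 bases (CYLD), beside a median of 1552 bases. The share was not matched for length. The named genes were picked for following SLC25A20 in these same libraries, so their matches are a description. Of the 9 other genes of the shuttle and beta-oxidation, SLC22A5 was the most like SLC25A20 (r = 0.82, rank 249) and CRAT the least (r = -0.86).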

How the data were processed

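Per the labels and the study's methods, the authors quantified polyadenylated RNA of 9 libraries with Salmon (version not given in the sources used here) on GRCh38.p13, summed to genes and removed low genes with edgeR. The deposited table holds estimated counts (88.75% of values not whole) for 14943 genes. A deposited table of corrected log2 values and 3 deposited tables of the authors' comparisons, with fold changes and p-values, were not used. Totals of 17.42 to 28.19 M counts limit the precision of low genes. The 10 genes, the pathway list, the markers and the tests were chosen with earlier results of these data known.

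Estimated counts were rounded and tested in R 4.3.3 with the quasi-likelihood test of edgeR 4.0.16 (TMM scaling, 0 more genes removed by filterByExpr, Benjamini-Hochberg adjustment over 14943 genes, threshold 0.05). All 9 libraries entered 1 fit by group with 1 surrogate variable from sva 3.50.0 (log2 CPM with prior count 2, num.sv method be, seed 1, number held between 1 and 3). The comparisons were 10 nM and 20 nM against Ctrl., which share controls, and 20 nM against 10 nM. The surrogate variable enters the fits but not the CPM, so a ratio of mean CPM can differ from a fitted fold change. Each SE was taken as the fitted log2 value over the root of its F-statistic. Alternatives were other scalings, DESeq2 1.42.0, a 1 CPM filter, 0 or 2 surrogate variables, a replicate block, only the groups compared and leaving out each library. The fits were tested on simulated data with 200 changed genes, whose changes were set smaller at 10 nM than at 20 nM. Recovered were 41 at 10 nM, 143 at 20 nM and 43 between the concentrations, with 5, 7 and 3 false calls. The simulation held no outlying library and no replicate effect, so it cannot show how the fits handle these.

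Named were the 10 genes, every listed pathway gene called in any comparison (at most 20 by adjusted p), for roles with none the most abundant gene, the nearest carriers in the table, and the 5 genes most like SLC25A20. Of 14943 genes, 14105 were matched to GENCODE 44 (GRCh38.p14) through identifiers and 768 through symbols, leaving 70 unmatched. Seed matches were searched in the longest 3′ UTR, or in any annotated one as an alternative. Python 3.11.15, numpy 2.4.6, pandas 2.3.3 and matplotlib 3.10.9 were used.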

Additional observations from a re-analysis of the deposited data

How the results depend on the processing

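Counts depended most on how variation between libraries was modelled. Over all genes, the counts called at 10 nM, 20 nM and between the concentrations (97, 2074 and 417) were 5, 954 and 67 without a surrogate variable. With only the groups compared, 268 were called at 10 nM, and with DESeq2 218. Leaving out each library gave 34 to 160, 1074 to 2656 and 111 to 462 genes. Without 20 nM replicate 3 and with surrogate variables estimated again, it was 1318, 4370 and 1495. The cause was not tested.

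Of the 9 genes, 1 was called at 20 nM without a surrogate variable, 4 with only the groups compared, 1 to 3 when a library was left out and 4 in the added fit, which called 2 at 10 nM. Of the 54 pathway genes, DESeq2 called 1 at 10 nM and 1 between the concentrations, the fit without a surrogate variable 3 at 20 nM, and that with 2 surrogate variables 2 between the concentrations. Leaving out a library gave 0 to 1, 6 to 13 and 0 to 1, and the added fit 5, 16 and 7. The added fit also called more of all genes than the main fit in each comparison, as given above. No scaling changed a call of the 9 genes.

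Replicate numbers are shared by the groups. Deviations of same-numbered libraries correlated at 0.0288 to 0.185, and those of libraries with other numbers across groups at -0.17 to 0.032. All 9 of 9 libraries correlated best with their own number. The labels do not say what the numbers stand for, so the pairing is not established, and the main fits do not use it. With the replicate block in place of the surrogate variable, 3, 2039 and 124 genes were called, of the 9 genes 0, 3 and 0, and of the pathway list 7 at 20 nM. The block called CPT1C (0.35, adjusted p = 0.041) and ACADVL (0.26, adjusted p = 0.0339) and not SLC22A5 (-0.33, adjusted p = 0.0705). Of the pathway genes it did not call ABCD2, ABCD3, ACAT1 and ACSL3 (adjusted p = 0.172, 0.298, 0.0681 and 0.123). SLC25A20 was then at -0.54, -0.86 and -0.32.

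Sign changes concerned uncalled genes near 0. At 20 nM, CPT1A turned to 0.052, CPT2 to -0.0015, ACADM to -0.0056 and HADHB to -0.023 without a surrogate variable, and to 0.055, -0.0041, -0.011 and -0.029 with the block. Between the concentrations, CPT1A, ACADM and HADHB turned to 0.026, -0.022 and -0.046 without it and to 0.028, -0.024 and -0.050 with the block. CPT1A was at 0.045 at 20 nM and 0.0026 between the concentrations with 2 surrogate variables, at 0.0054 at 20 nM with only the groups compared, and at -0.00097, 0.015 and 0.016 in the added fit. When a library was left out, CPT1A ran from -0.054 to 0.083 at 10 nM, from -0.066 to 0.055 at 20 nM and from -0.072 to 0.037 between them, and HADHA from -0.076 to 0.0081 at 20 nM. With any annotated 3′ UTR in place of the longest, 3 of the 10 genes still held a 7-mer. Genes below about 1 CPM, such as SLC22A4, are too shallow for firm statements.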
